A study of Macaca mulatta with 13 samples.

Results

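The miRNAs described here are those of the distal part of the DLK1-DIO3 locus, the cluster that runs from miR-379 to miR-410 and miR-656. They were found by name: of 39 miRNA stems of the cluster, 35 were listed, and these gave 67 of the 909 named miRNAs once repeated rows were reduced. The counts come from small RNA libraries of vastus lateralis, a thigh muscle, taken as biopsies from rhesus monkeys on a control diet (Control, 5 samples) or on caloric restriction (CR, 8 samples). No genetic change, drug or time point is named for either group, no age of the animals was used here, and nothing says outright that every sample came from a different animal. P-values therefore measure the spread between these samples, which may be partly technical. The series is titled for networks behind the prevention of age-related muscle loss by CR, and the question put to these miRNAs is whether their level differed between the diets.

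The DLK1-DIO3 locus is imprinted: its protein genes DLK1, RTL1 and DIO3 are read from the paternal chromosome, and its long noncoding RNAs, snoRNAs and miRNAs from the maternal chromosome. The distal miRNAs lie close together in the same orientation and are thought to be cut from a long shared precursor, after which each hairpin gives a 5p and a 3p arm that are loaded into silencing complexes to very different extents. In mice the cluster is known for roles in neurons, in the metabolism of the newborn liver and in muscle, where the transcription factor MEF2A activates it during regeneration. The RefSeq annotation of the T2T-MMU8v2.0 assembly, used here for gene order only, lists 47 miRNA genes between DLK1 and DIO3. Of these, 36 are genes of the distal cluster, and they follow each other from MIR379 to MIR656 with no other miRNA gene between them. They cover 34 of the 35 stems found, and miR-323b has no entry there under that name.

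Most of the cluster was faint in this muscle. Of the 67 names, 9 had 0 counts in all 13 libraries, 39 had counts but fell below the filter on low counts, and 19, from 16 hairpins, were tested. A count of 0 allows up to 3 counts, which is 0.556 to 2.60 CPM (counts scaled to the same library total), on library totals that ran from 1154326 to 5392611. Among the names with 0 counts were miR-487a, miR-544, miR-410-5p and miR-380-5p. The miR-376 family, well known from brain and placenta in this locus, was near that limit: miR-376c-3p had 15 counts in total and miR-376a-3p 8, and miR-376b-3p had 1. The most abundant untested names were miR-411-3p with 160 counts in total, miR-380-3p with 140, and miR-758-3p and miR-543-3p with 126 each. The tested names held 97.8 to 98.6% of the cluster's counts in every library.

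The cluster as a whole took a small share of miRNA counts, and 1 Control library stood far above the rest. In Control the share was 0.0518% in replicate 1, 0.131% in replicate 2, 0.0713% in replicate 3, 0.621% in replicate 4 and 0.0659% in replicate 5. In CR the lowest share was 0.0498%, the median 0.0850% and the highest 0.136%. Control replicate 4 thus lay above each of the other 12 libraries, with a 95% exact binomial interval of 0.614 to 0.628% that covers counting error only, while the other 4 Control libraries lay within the range of CR. The mean was 0.188% ± 0.244 (SD, n = 5) in Control and 0.0914% ± 0.0343 (SD, n = 8) in CR. Without replicate 4 the Control mean was 0.0800% ± 0.0350 (SD, n = 4), and the difference between the diets, CR minus Control, went from -0.0969 to 0.0114 percentage points.

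Control replicate 4 also stood apart outside this cluster. The skeletal muscle markers (miR-1, miR-133a, miR-133b, miR-206, miR-208b, miR-499 and miR-486, 13 rows) took 44.8% of its counts against 52.9 to 74.8% in the other libraries, and 8 of 8 tested rows were lowest there by CPM scaled with TMM factors (the edgeR correction for library composition), the scale of the row counts and summed levels that follow. The 4 fibroblast rows (miR-199a, miR-199b and miR-214) took 0.361% against 0.0365 to 0.220%, with 4 of 4 highest there, and the 7 endothelial rows 0.190% against 0.0284 to 0.0967%, with 3 of 5 tested rows highest. The adipocyte and neuronal rows, in contrast, were below all 12 other libraries: the 5 adipocyte rows summed to 621 CPM there against 1023 to 3018, with 3 of 4 tested rows lowest, and the 8 neuronal rows to 5.39 CPM against 9.72 to 130, with 2 of 3 lowest. As shares of counts these lists were inside the range of the other libraries, at 0.109% (0.0946 to 0.229%) and 0.000948% (0.000925 to 0.00949%). The reverse held for smooth muscle, leukocyte and red blood cell rows, whose shares of 5.26% (0.926 to 4.72% elsewhere), 0.123% (0.0299 to 0.0893%) and 0.131% (0.00845 to 0.128%) were above all others. Their summed levels of 29897 CPM (10987 to 45629), 701 CPM (278 to 790) and 745 CPM (135 to 1510) were inside the range, with 0 of 3, 1 of 5 and 0 of 1 tested rows highest. Liver rows were inside it on both scales, at 0.000302% (4.2e-05 to 0.00223%) and 1.71 CPM (0.571 to 24.2). In a whole biopsy fewer cells of a type and less RNA per cell cannot be told apart, and the part of these markers in the values below was not tested.

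The same 5 miRNAs led the cluster in each of the 13 libraries. They were miR-409-3p, miR-381-3p, miR-411-5p, miR-654-3p and miR-410-3p, and together they took 86.5 to 89.4% of the cluster's counts in Control and 83.8 to 89.8% in CR. Here and below, abundance means counts, which ligation to the adapters can shift between miRNAs of unlike sequence. MiR-409-3p was first in 13 of 13 libraries, and miR-381-3p was second in 8.

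MiR-409-3p, from a hairpin near the DIO3 end, was the most abundant. Its level, as CPM scaled with TMM factors, was 306, 571, 286, 1038 and 273 in Control replicates 1 to 5. In CR it ran from 296 through a median of 430 to 762. Control replicate 4 was the highest of the 13 libraries by a factor of 1.36 over CR replicate 5, and the other Control libraries overlapped CR.

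MiR-381-3p came next. Control replicates 1 to 5 held 91.3, 64.4, 115, 881 and 137 CPM. In CR the lowest, median and highest levels were 67.1, 116 and 192 CPM. The level in Control replicate 4 was 4.60 times that of the next library, and all other Control values lay within or just below the range of CR.

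MiR-411-5p, whose hairpin is the second of the cluster, has been tied to myoblast growth. It stood at 72.1, 62.9, 76.7, 404 and 105 CPM in Control replicates 1 to 5. In CR it ran from 57.4 through 89.7 to 134 CPM. For this miRNA only Control replicate 4 among the Control libraries lay outside the range of CR.

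MiR-654-3p held 57.1, 88.9, 38.1, 307 and 58.3 CPM in Control replicates 1 to 5, against a CR range of 55.8 to 119 with a median of 76.5. Control replicate 4 lay above this range and replicate 3 below it. MiR-410-3p, at the far end of the cluster, held 39.5, 75.8, 70.0, 426 and 57.9 CPM in Control and 47.3 to 91.0 in CR, with a median of 76.4. Its level in Control replicate 4 was 4.68 times that of the next library, the largest such gap among the 19 tested miRNAs.

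A second tier held means of 9.99 to 29.4 CPM. MiR-299-5p stood at 16.5, 16.2, 11.2, 141 and 8.33 CPM in Control replicates 1 to 5 and at 12.4 to 37.4 in CR, with a median of 22.0. Without replicate 4, Control and CR still overlapped, between 12.4 and 16.5 CPM. MiR-134-5p, which limits the size of dendritic spines in rat neurons, held 13.2, 18.8, 21.3, 70.5 and 17.1 CPM in Control and 12.7 to 33.8 in CR, with a median of 18.9. MiR-485-5p, a regulator of synaptic proteins in rodent neurons, had the narrowest spread of the tested miRNAs outside Control replicate 4, with a 2.23-fold difference between the highest and the lowest of those 12 libraries. It held 9.77, 10.6, 7.28, 20.8 and 5.00 CPM in Control and 6.74 to 11.1 in CR, with a median of 9.61.

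The other members for which values by library are given had means of 5.09 to 7.02 CPM. MiR-382-5p was at 5.26, 5.41, 6.16, 18.2 and 5.83 CPM in Control and at 1.23 to 10.2 in CR, with a median of 4.59. Its Control libraries other than replicate 4 lay close together, inside the wider range of CR. MiR-377-5p stood at 3.76, 5.15, 5.04, 27.4 and 2.92 CPM in Control and at 4.46 to 8.02 in CR, with a median of 5.46. MiR-379-5p, which opens the cluster and in mouse liver responds to glucocorticoids, held 3.76, 2.32, 2.52, 11.3 and 7.08 CPM in Control and 2.25 to 8.03 in CR, with a median of 4.98. The other 8 tested miRNAs, miR-299-3p, miR-654-5p, miR-487b-3p, miR-889-3p, miR-485-3p, miR-412-5p, miR-369-5p and miR-323b-3p, had means over all libraries of 2.71 to 6.49 CPM.

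**Figure D1:**
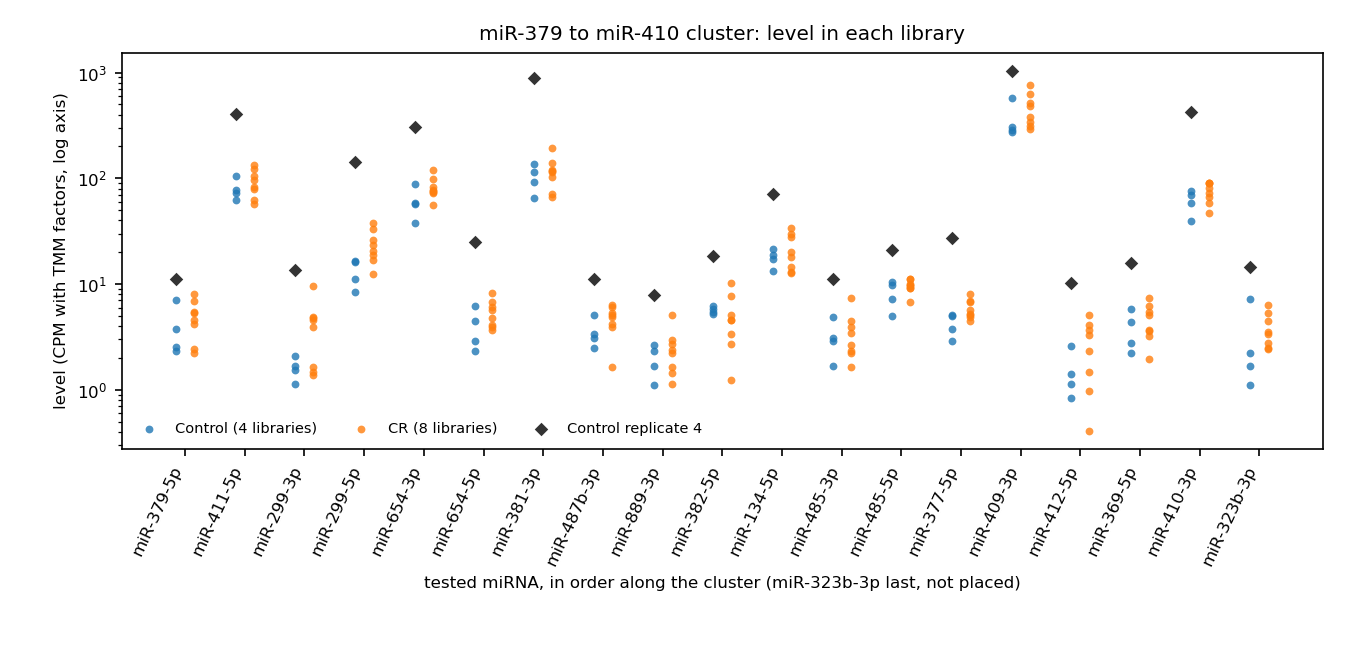
Level of the 19 tested miRNAs of the cluster in each library, as CPM scaled with TMM factors on a log axis, with blue points for 4 Control libraries, orange points for 8 CR libraries and black diamonds for Control replicate 4. For each of the 19 miRNAs the diamond is the highest point, while blue and orange points overlap.

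The excess in Control replicate 4 was shared by the tested miRNAs but not even across them. All 19 had their highest level there, where 19.8% of the 263 tested miRNAs did, and 19 of 19 were at least 2-fold above the median of the other 4 Control libraries, where 17.9% of all tested miRNAs were. The ratio to that median ran from 2.44 for miR-485-5p and 3.25 for miR-382-5p to 8.56 for miR-381-3p and 10.3 for miR-299-5p, with a median of 5.31, against a median of 0.932 over all tested miRNAs. With CPM on library totals alone the cluster's ratios ran from 4.73 to 19.8, with a median of 8.50, since the TMM factor of this library was the largest, at 1.76. High and low ratios did not sort by place: miR-299-5p lies 2 hairpins after miR-379-5p, whose ratio was 3.59, and miR-410-3p (6.66) lies near miR-409-3p (3.51) and miR-412-5p (8.14). A comparison list from the same locus held the proximal miRNAs and any rows of miR-300, miR-453, miR-1193 and miR-1197. Its ratios were of the same order, from 2.05 for miR-370-3p to 9.91 for miR-493-5p over the 6 tested, and 4 of these 6 were highest in that library. The untested names of the cluster followed: 602 of their 1225 counts, or 49.1%, came from Control replicate 4. The 95% exact binomial interval, 46.3 to 52.0%, pools the names and covers counting error only. That library held 9.96% of all counts and 17.2% of the library sizes after TMM scaling.

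**Figure D2:**
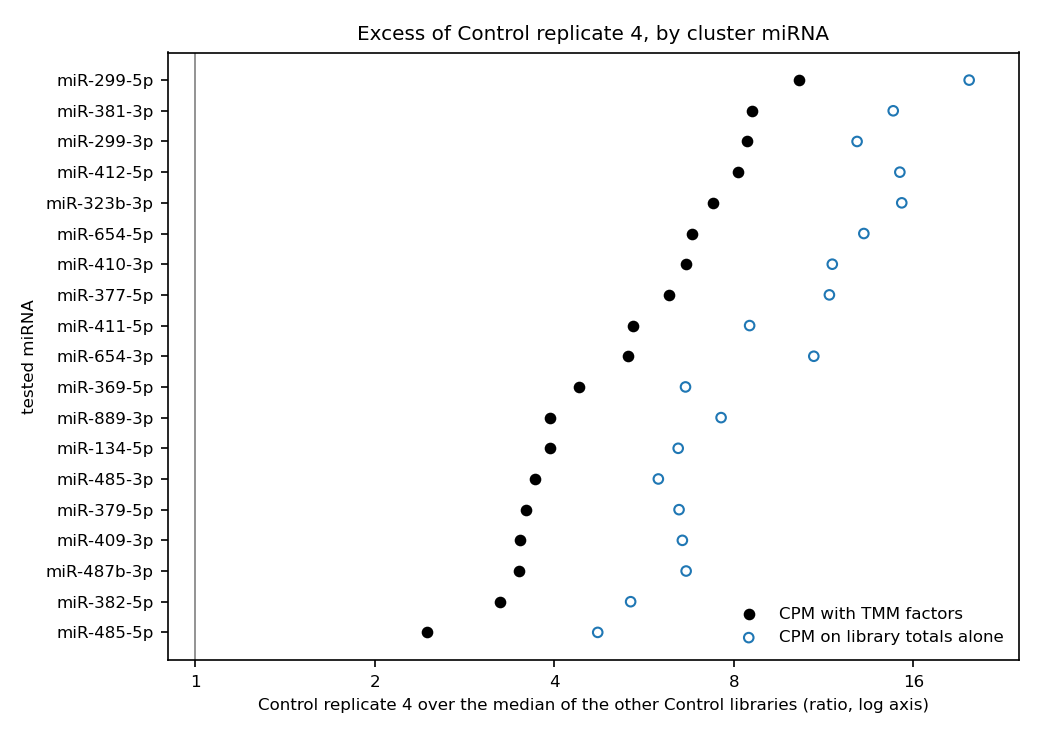
Ratio of the level in Control replicate 4 to the median of the other 4 Control libraries for each of the 19 tested miRNAs, on a log axis, with black points for CPM scaled with TMM factors and open blue circles for CPM on library totals alone. Black points run from 2.44 for miR-485-5p to 10.3 for miR-299-5p, and open circles from 4.73 to 19.8.

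Because the ratios were uneven, the make-up of the cluster also differed in Control replicate 4, and this does not depend on the scaling between libraries. MiR-409-3p took 29.4% of the cluster's counts there, below the 37.3 to 60.0% of the other 12 libraries. MiR-381-3p took 25.0% there against 6.68 to 22.9% elsewhere, and miR-410-3p 12.1% against 6.03 to 10.5%. The shares of miR-411-5p (11.4% against 6.47 to 14.7%) and miR-654-3p (8.69% against 5.69 to 10.99%) lay inside the range of the other libraries. Between the diets the make-up overlapped. MiR-409-3p took 43.3% ± 10.97 (SD, n = 5) in Control and 48.2% ± 7.84 (n = 8) in CR, and miR-381-3p 16.4% ± 6.76 and 12.6% ± 4.92. Without Control replicate 4 the Control means were 46.8% ± 8.96 and 14.2% ± 5.49 (SD, n = 4).

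**Figure D3:**
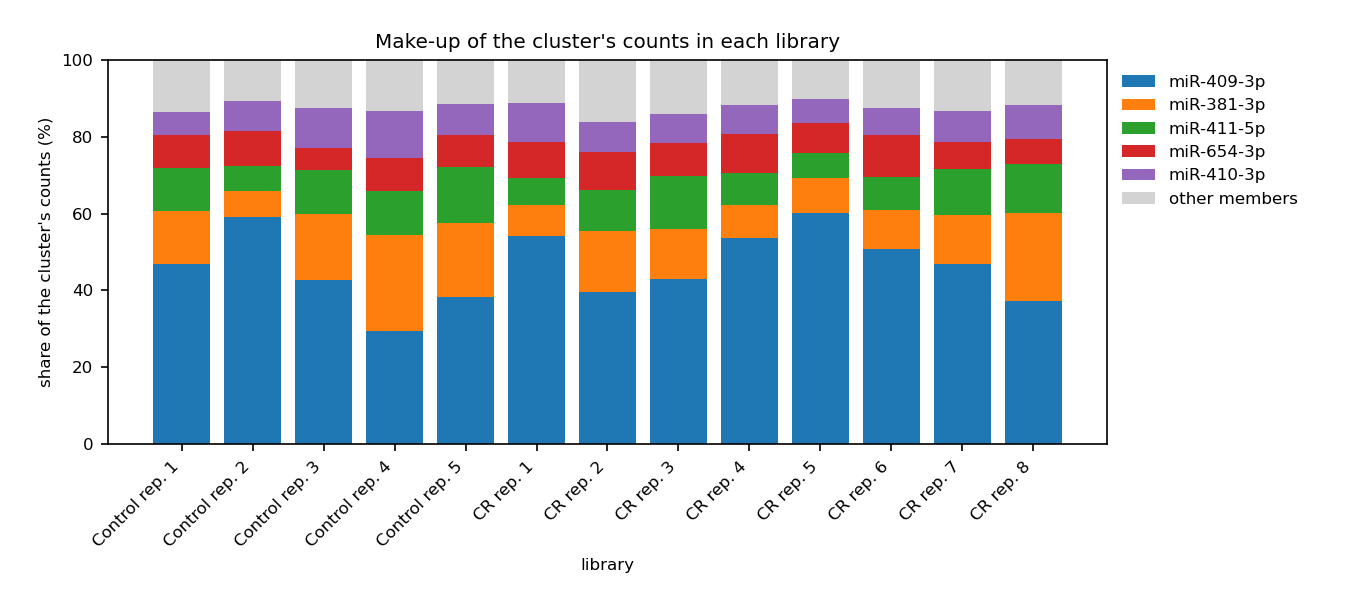
Share of the cluster's counts, in percent, taken by each of the 5 leading miRNAs and by all other members (grey) in each of the 13 libraries. MiR-409-3p is the largest part of every bar and smallest, at 29.4%, in Control replicate 4, where miR-381-3p reaches 25.0%.

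No member of the cluster passed the threshold between the diets. Fitted over all 263 tested miRNAs, the edgeR quasi-likelihood test called 0 at a Benjamini-Hochberg adjusted p of 0.05, which is 0% of all tested, and 0 of the 19 members. At an unadjusted p of 0.05 it called 7 of 263 (2.66%) and 1 of the 19, miR-381-3p. DESeq2 and limma-voom also called 0 members, beside 0 of all 263 (0%). DESeq2 gave no p for 5 of the 19, beside 7 of all 263, because its check for outlying counts set them aside. These 5, which DESeq2 could thus not call, were miR-381-3p, miR-410-3p, miR-411-5p, miR-299-5p and miR-377-5p. All 19 had a lower fitted level in CR, where 48.3% of the tested miRNAs did and 51.7% had a higher one, with a median log2 fold change of -0.45 against 0.0103 over all 263. Without Control replicate 4, 18 of the 19 had a higher fitted level in CR, where 56.7% of all did and 43.3% had a lower one, with a median of 0.33 against 0.0603, again with 0 called (0%). At an unadjusted p of 0.05, 2 of the 19 were called in that fit, beside 2.28% of all tested. The direction of the cluster between the diets thus turned when 1 library was left out, with TMM factors as with library totals alone. With all libraries, limma-voom gave miR-299-3p and miR-409-3p a higher level in CR, and the other scalings left all 19 lower.

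The largest difference with all libraries was that of miR-381-3p, with a log2 fold change, CR against Control, of -1.16 ± 0.50 (SE) and an adjusted p of 0.985 in edgeR. The Control mean, 258 CPM ± 350 (SD, n = 5), held the 881 CPM of Control replicate 4, and 8 of 8 CR samples lay under it. Without that library the log2 fold change was 0.18 ± 0.28 and the Control mean 102 CPM ± 31.1 (SD, n = 4), beside 115 ± 39.4 (n = 8) in CR. The next by p were miR-410-3p at -0.85 ± 0.44, miR-382-5p at -0.76 ± 0.44, miR-411-5p at -0.64 ± 0.40 and miR-377-5p at -0.64 ± 0.46, each with an adjusted p of 0.985 in edgeR. Without Control replicate 4 they stood at 0.29 ± 0.24, -0.20 ± 0.41, 0.23 ± 0.26 and 0.46 ± 0.31, so that miR-382-5p alone kept a lower fitted level in CR. Over the alternatives other than DESeq2, which gave it no p, the adjusted p of miR-381-3p ran from 0.660 to 1.00.

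The most abundant member, miR-409-3p, had a log2 fold change of -0.0926 ± 0.33 with all libraries and 0.37 ± 0.29 without Control replicate 4. For miR-654-3p the values were -0.43 ± 0.39 and 0.44 ± 0.26, for miR-134-5p -0.42 ± 0.39 and 0.28 ± 0.32, for miR-485-5p -0.18 ± 0.32 and 0.23 ± 0.28, and for miR-379-5p -0.15 ± 0.43 and 0.37 ± 0.42. The fit without that library gave miR-299-5p its largest departure among the abundant members. Its log2 fold change was -0.73 ± 0.55 with all libraries and 0.85 ± 0.33 without, where 7 of 8 CR samples lay above the Control mean of 13.1 CPM ± 4.00 (SD, n = 4) and the CR mean was 23.6 ± 8.38 (n = 8). The other arm of that hairpin, miR-299-3p, named after its values were seen, went from -0.0545 ± 0.59 to 1.36 ± 0.53, with 6 of 8 CR samples above the Control mean. Its level was 1.13 to 2.08 CPM in Control without replicate 4 and 1.39 to 9.54 in CR. Those Control values were near the floor of 3 counts, which reached 2.60 CPM on library totals. In the fit without that library both arms had an unadjusted p under the threshold, and edgeR's adjusted p was 0.969 for each. They come from 1 hairpin and are not independent.

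The precision of these estimates limits what can be said of smaller differences. With all libraries the 95% interval excluded a 2-fold difference in either direction for 3 of the 19 tested members, beside 154 of 263 tested miRNAs, and the median half-width of the members' intervals was 0.95 on the log2 scale. Without Control replicate 4 it excluded a 2-fold difference for 7 of the 19, beside 167 of 263 tested miRNAs, and a 2-fold lower level in CR for 18, beside 222 of 263. For miR-409-3p the interval ran from -0.79 to 0.61 with all libraries and from -0.23 to 0.98 without Control replicate 4.

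**Figure D4:**
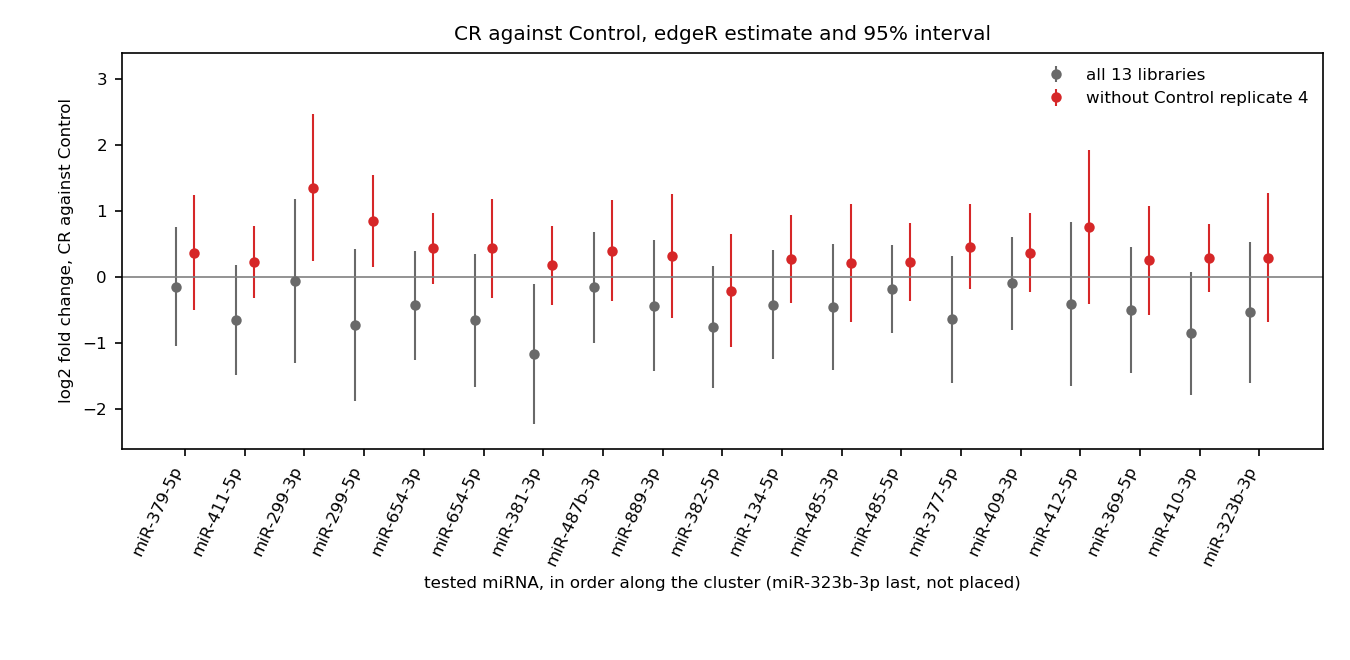
Log2 fold change, CR against Control, of the 19 tested miRNAs in order along the cluster, in grey for all 13 libraries and in red without Control replicate 4. The 95% intervals were worked out from the edgeR test. All 19 grey points lie below 0 and 18 of 19 red points above it, and 16 of the 19 grey intervals reach past a 2-fold difference.

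The arm that dominated differed from hairpin to hairpin. Of the 28 hairpins with both arms listed, 26 had at least 10 counts over all libraries, and 16 of them gave more counts from the 3p arm and 10 from the 5p arm. Neighbours could differ: miR-409 gave 25740 counts from its 3p arm and 28 from its 5p arm, while the next hairpin, miR-412, gave 2 and 175. At the other end, miR-379, miR-411 and miR-299 were led by the 5p arm, with 77.0, 97.7 and 88.5% of both arms' counts, and miR-380, next to them, by the 3p arm, with 140 of 140 counts. MiR-541 was the most even, with 38.2% from the 5p arm.

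The 5p share could be followed by library for the 8 hairpins that had at least 10 counts in each. For miR-409, miR-381 and miR-410 it was 0 to 0.610%, 0 to 0.255% and 0% over the 13 libraries, and for miR-134 and miR-411 it was 97.3 to 100% and 96.6 to 100%. MiR-654 ran from 2.54 to 13.9%, miR-485 from 60.0 to 87.1% and miR-299 from 68.1 to 95.3%. The lowest value of miR-299 was that of CR replicate 7, where miR-299-3p was also at its highest CR level, 9.54 CPM. In Control replicate 4 the share lay inside the range of the other libraries for 7 of the 8, and for miR-411, at 96.6%, just below it. Between the diets the largest differences were those of miR-299, at 88.6% ± 5.38 (SD, n = 5) in Control and 85.2% ± 8.90 (n = 8) in CR, and miR-485, at 70.7% ± 8.06 and 74.1% ± 8.19. Over 118 hairpins tested in the whole table with a two-sided exact permutation test, 0 (0%) passed an adjusted p of 0.05 and 3 (2.54%) an unadjusted one, none of them among the 8. The smallest unadjusted p of the 8 was 0.0692, for miR-409, and the smallest that 1287 splits allow is 0.000777. Without Control replicate 4 the counts over all hairpins were again 0 (0%) and 3 (2.54%), with none among the 8.

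**Figure D5:**
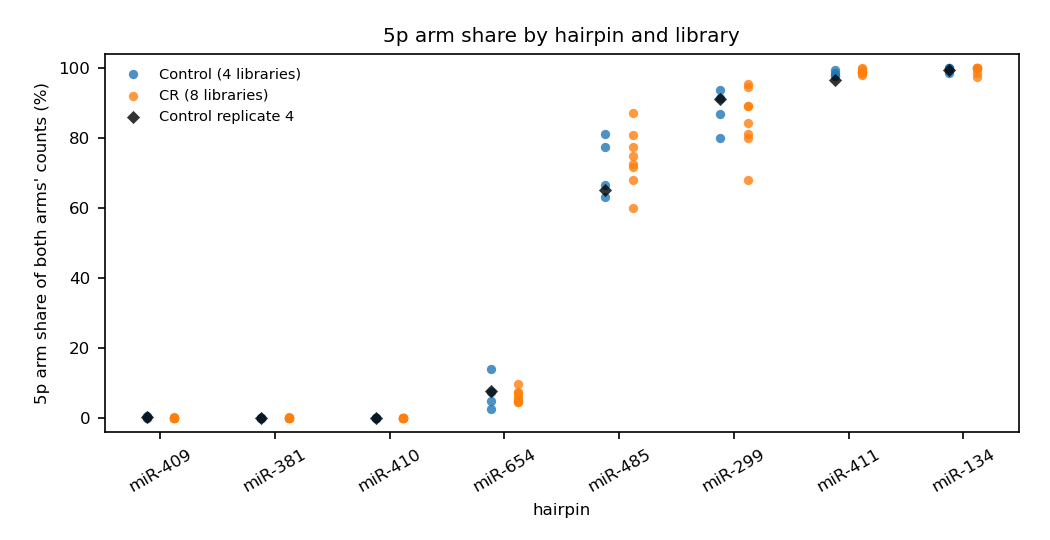
Share of both arms' counts that came from the 5p arm, in percent, for the 8 hairpins of the cluster with at least 10 counts in every library, with blue points for 4 Control libraries, orange points for 8 CR libraries and black diamonds for Control replicate 4. MiR-409, miR-381 and miR-410 lie at or near 0%, miR-134 and miR-411 near 100%, and miR-485 and miR-299 spread over 60.0 to 95.3%.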

How the data were processed

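The authors deposited 1 table of read counts for each miRNA row in each library, taken here as not normalized because its values are whole numbers. Small RNAs were isolated from a gel and made into TruSeq libraries read single-end, per the labels' protocols. Per the submitters' processing notes the genome build was Mmul_8.0.1. For the aligner and the counter, names and settings were not given in the sources used here. Of 1703 rows, 702 predicted loci were left out of the main test. For 67 names listed more than once only the row of highest total was used, and 3 pairs of names that differed by at most 1% were merged, none of them in this cluster. Library totals ran from 1154326 to 5392611. No pair of libraries of a group was alike within counting noise (chi-square at least 149 times its degrees of freedom). Each was counted as 1 sample, though this check cannot tell whether any came from the same animal.

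The test of the counts was that of edgeR 4.0.16 in R 4.3.3 (robust quasi-likelihood fit, TMM, filterByExpr), over 263 miRNAs and without covariates. Alternatives were DESeq2 1.42.0, limma-voom 3.58.1, other scalings and filters, summed copies, predicted loci kept, a block for the replicate number, a covariate for the sample number, and leaving out each library. The scripts were tested on simulated data. Levels by library are given for members chosen by abundance, p, place in the cluster and ratio in Control replicate 4. Members, lists and tests were chosen with earlier results of these data known. Mature sequences were not used here.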

Additional observations from a re-analysis of the deposited data

Results flagged for a closer look

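Samples that stood far from the others of their group were looked for in 66 sets of values (each tested member's level, its arm share or its share of counts, in each diet), where chance flags about 1 in 20, and 20 were found. The value given for each is the sample's gap to its nearest neighbour as a part of the group's range, against a critical value of 0.71 for 5 samples and 0.526 for 8. Control replicate 4 was high among the Control samples for 13 of the 19 levels. The gaps were 0.878 for miR-411-5p (404 CPM), 0.923 for miR-299-3p, 0.938 for miR-299-5p, 0.811 for miR-654-3p, 0.832 for miR-654-5p, 0.911 for miR-381-3p, 0.775 for miR-889-3p, 0.931 for miR-382-5p, 0.858 for miR-134-5p, 0.909 for miR-377-5p, 0.815 for miR-412-5p, 0.736 for miR-369-5p and 0.906 for miR-410-3p (426 CPM). The cluster's share of all counts was also high there (0.861). These flags come from the same library and are not independent. The search was not run over all 263 tested miRNAs, of which 19.8% had their highest level in that library. Whether the flags are particular to the cluster was therefore not tested.

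In CR, replicate 7 was high for miR-299-3p (gap 0.575, at 9.54 CPM), replicate 3 was high for miR-889-3p (0.530, at 5.08 CPM) and replicate 1, the shallowest library, was low for miR-485-5p (0.550, at 6.74 CPM). The 5p arm share of miR-381 was above 0 in 1 library of each diet, Control replicate 4 (0.0972%) and CR replicate 5 (0.255%), and that of miR-409 in 1 CR library, replicate 6 (0.293%). The gap was 1 for each of these 3, since every other library of the group was at 0. These shares rest on few counts: miR-381-5p had 8 in total, 7 of them in Control replicate 4, and miR-409-5p had 28. Depth also differed, as both arms together had 127 to 7204 counts by library for miR-381 and 655 to 8493 for miR-409.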

How the results depend on the processing

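The count past the threshold was 0 under all 25 alternatives to the test, for the members as for all tested miRNAs. DESeq2 gave no p for 5 of the 19. Without Control replicate 4 the signs turned. Over single libraries left out, the number of the 19 with a lower fitted level in CR ran from 1 to 19, and their median log2 fold change from -0.73 to 0.33. The 1 and the 0.33 were those without Control replicate 4, and with any other library left out the median lay between -0.73 and -0.49. With library totals alone the median was -1.02, while that of all tested miRNAs was -0.26 in place of 0.0103, and the median ratio of Control replicate 4 to the other Control libraries was 8.50 in place of 5.31 (5.26 to 5.44 with another library left out). With library totals alone and Control replicate 4 left out, an alternative chosen after seeing the data, 1 of the 19 was lower in CR, the median was 0.18, and the log2 fold changes were miR-134-5p 0.15, miR-299-3p 1.30, miR-299-5p 0.69, miR-323b-3p 0.00764, miR-369-5p 0.0923, miR-377-5p 0.32, miR-379-5p 0.26, miR-381-3p 0.0629, miR-382-5p -0.32, miR-409-3p 0.21, miR-410-3p 0.16, miR-411-5p 0.11, miR-412-5p 0.64, miR-485-3p 0.0704, miR-485-5p 0.0379, miR-487b-3p 0.25, miR-654-3p 0.28, miR-654-5p 0.38, miR-889-3p 0.18. In that fit the median over all tested miRNAs was -0.0466. With a mean CPM of at least 10, and Control replicate 4 kept, 8 of 8 members left had a lower level. Their median was -0.63, against -0.00930 over the 182 miRNAs tested. The share of all tested miRNAs with a lower level is not given here for either fit. With the replicate number as a block the median was -0.0785, and miR-299-3p (0.48), miR-299-5p (0.29), miR-409-3p (0.17), miR-412-5p (0.20), miR-487b-3p (0.16) and miR-654-3p (0.15) turned. Same-numbered libraries did not deviate together (correlations of -0.24 to -0.0474, and 0 of 5 Control libraries correlated best with their own number). These values show no pairing by number, but so few of them cannot exclude one. With limma-voom miR-299-3p was at 0.25 and miR-409-3p at 0.0213. The unadjusted count over all miRNAs ran from 0 to 28. For the difference in summed share the values ran from -0.13 to 0.0114 percentage points.

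Over single libraries left out, log2 fold changes ran as follows: miR-134-5p from -0.71 to 0.28, miR-299-3p from -0.50 to 1.36, miR-299-5p from -1.13 to 0.85, miR-323b-3p from -0.87 to 0.30, miR-369-5p from -0.81 to 0.25, miR-377-5p from -0.98 to 0.46, miR-379-5p from -0.35 to 0.37, miR-381-3p from -1.52 to 0.18, miR-382-5p from -0.99 to -0.20, miR-409-3p from -0.36 to 0.37, miR-410-3p from -1.22 to 0.29, miR-411-5p from -0.93 to 0.23, miR-412-5p from -0.75 to 0.77, miR-485-3p from -0.69 to 0.21, miR-485-5p from -0.45 to 0.23, miR-487b-3p from -0.43 to 0.40, miR-654-3p from -0.72 to 0.44, miR-654-5p from -0.98 to 0.43, miR-889-3p from -0.69 to 0.33. Arm-share differences ran, in percentage points, miR-134 from -0.36 to 0.18, miR-381 from -0.0194 to 0.0319, miR-654 from -2.11 to 0.73 for the hairpins whose sign turned. Depth limits the fainter members: at 3 counts the floor was up to 2.60 CPM on library totals. On the other scale, CPM with TMM factors, the means of miR-889-3p and miR-412-5p were 2.71 and 2.89. In Control without replicate 4 the means of miR-299-3p, miR-889-3p and miR-412-5p were 1.61, 1.93 and 1.48.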

Other observations

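The other large imprinted miRNA cluster of primates, known from placenta, was also looked up (miR-512, miR-515 to miR-527, miR-498, miR-1283 and miR-1323, with miR-371 to miR-373). Of its 45 names, 36 had 0 counts in all 13 libraries, the summed counts of a library were 0 to 7, and 0 names were tested. At this depth that cluster was not detectable above a few counts, and Control replicate 4, with its high level of the miR-379 to miR-410 cluster, did not have the highest sum of it (0.490 CPM, against up to 1.31 CPM in the other libraries).

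The cluster was listed with more names in Control replicate 4, where 52 of the 67 had a count, against 30 to 43 in the other libraries. Brought to the depth of the smallest library, the expected number was 42.7 there and 23.9 to 33.0 in the others. In 4 names (miR-376b-5p, miR-376b-3p, miR-376c-5p and miR-495-5p) the only count, 1 read each, came from Control replicate 4. These numbers were not worked out over all 909 named miRNAs, so whether they are particular to the cluster was not tested.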
